A study of Arabidopsis thaliana with 8 samples.

Results

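The lipocalin genes TIL and CHL of Arabidopsis thaliana were followed across 8 Affymetrix arrays. TIL (AT5G58070, probe set 247851_at) and CHL (AT3G47860, probe set 252391_at) were chosen by name, each through the probe set that the platform annotation pairs with that gene alone, so the members were 2 of the 13356 genes and 2 of the 22810 probe sets. Each array held RNA of whole 7-day-old seedlings, drawn from a pool of about 100 plants. The groups were samples labelled til1-1 (a mutant of TIL) after heat shock at 37 °C, til1-1 samples at 22 °C, wild type (Col-0) after heat shock at 37 °C and wild type at 22 °C, with 2 biological replicates each. Heat-shocked seedlings were collected directly after treatment. The length of the heat shock, the lesion in the til1-1 allele and the place of the probes relative to it are not stated in the labels.

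Lipocalins are small proteins with a barrel fold whose pocket holds lipids and other hydrophobic molecules. TIL, temperature-induced lipocalin, is associated with the plasma membrane, and plants without it are known to be sensitive to heat and to accumulate peroxidised lipids. CHL, the chloroplastic lipocalin, lies in the thylakoid lumen, protects thylakoid lipids from oxidation and takes part in a slow form of photoprotective quenching of the light-harvesting antenna. Both probe sets passed the filter on dim values and lay in the upper part of every array: TIL was at or above 95.5% to 99.7% of the 22746 probe sets that were not controls, and CHL at or above 95.8% to 96.7%.

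**Figure D1:**
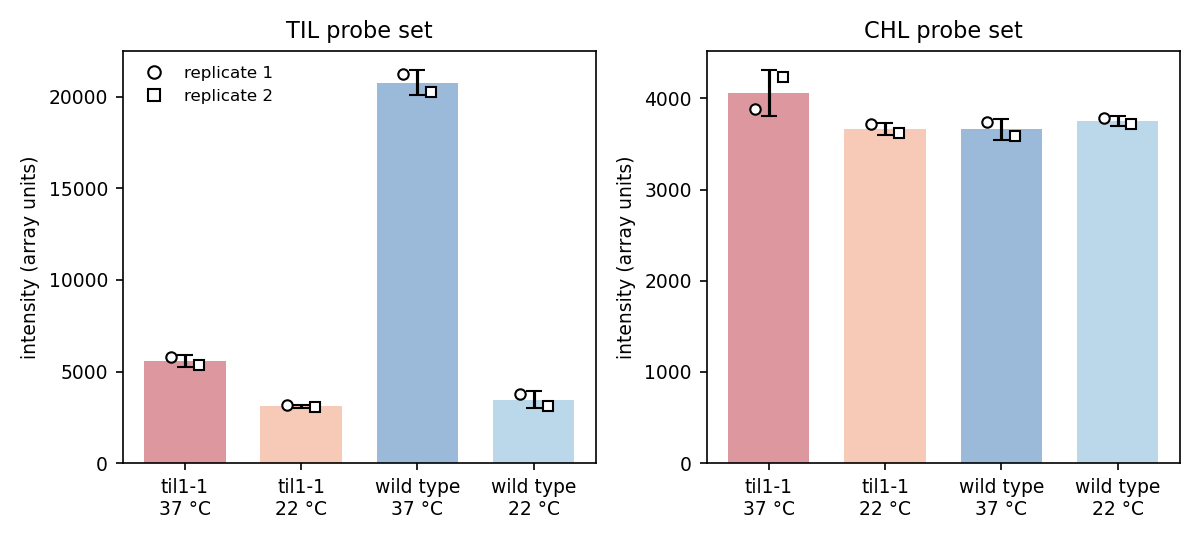
Intensity of the TIL and CHL probe sets (linear array units) in the 4 groups; bars are means, error bars are SDs over 2 samples, and points are single arrays. TIL stands highest in wild type at 37 °C, at a mean of 20768, where til1-1 samples at 37 °C average 5573, while all 8 CHL values lie between 3582 and 4234.

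The arrays as a whole set the scale of these values. Every array had been scaled to 1 trimmed mean (500.04 or 500.05), and its median was 154.8 to 160.4 intensity units on heated arrays and 197.6 to 204.1 on unheated ones. The median log2 heat response of the 17059 tested probe sets was therefore -0.19 in til1-1 samples and -0.18 in wild type, and it moved to 0.13 and 0.14 with array medians set equal, to -0.06 and -0.05 after quantile normalization, and to -0.62 and -0.60 after scaling to spiked controls. The share of higher calls among heat calls moved with it: in til1-1 samples it was 28.7% as deposited, 66.5% with medians equal, 40.4% after quantile normalization and 6.71% with spiked controls, and in wild type 28.4%, 67.7%, 40.7% and 6.79%. The 25S rRNA control read 1828 to 3967 on heated arrays and 269.8 to 410.4 on unheated ones. The ratios of control probe sets at the 3′ and 5′ ends, a sign of RNA quality, did not move one way: that of actin was 1.86 to 2.16 on heated arrays and 1.56 to 1.75 on unheated ones, that of ubiquitin 0.892 to 1.12 and 1.14 to 1.23, and that of GAPDH 0.957 to 1.04 and 0.915 to 1.00. Their part in the heat responses below was not tested.

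TIL, the gene mutated in til1-1, was examined first in every sample. It read 5803.7 and 5341.8 in til1-1 samples at 37 °C, against 3167.6 and 3047.8 in til1-1 samples at 22 °C. In wild type it read 21245.7 and 20289.7 at 37 °C, against 3795.1 and 3132.3 at 22 °C. Both heat-shocked groups lay wholly above their unheated groups, and the heated wild type lay far above all other arrays. Groups that do not overlap in this direction were found for 23% of tested probe sets in til1-1 samples and for 23.8% in wild type.

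Heat shock raised TIL in both genotypes, by unequal amounts. In til1-1 samples the log2 rise was 0.84 ± 0.09 (standard error, 95% confidence interval 0.64 to 1.04), or 1.79-fold, at an adjusted p of 1.43e-05 (limma, Benjamini-Hochberg over all tested probe sets). In wild type it was 2.58 ± 0.09 (2.39 to 2.78), or 6.0-fold, at a limma adjusted p of 3.15e-10. Heat shock raised 12.7% of tested probe sets in til1-1 samples and 12.4% in wild type at an adjusted p under 0.05. Relative to the median of all tested probe sets, the TIL rises were 1.02 in til1-1 samples and 2.77 in wild type on the log2 scale.

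Single arrays gave the same order. Over the possible pairs of a heated and an unheated array, the fold rise of TIL intensity was 1.69 to 1.90 in til1-1 samples and 5.35 to 6.78 in wild type, and these ranges did not overlap. In intensity units TIL gained 2465 in til1-1 samples and 17304 in wild type, so that the gain in the til1-1 samples was 14.2% of that in wild type. The size of the rise in til1-1 samples moved with array scaling, being 1.18 with medians equal, 0.65 after quantile normalization and 0.38 with spiked controls, all positive and past the threshold (limma adjusted p from 7.15e-07 to 0.0105). In wild type the rise was 2.94, 2.16 and 2.13 on the log2 scale under the same settings.

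The comparison of genotypes at 37 °C asked whether the mutant label went with a lower TIL level after heat. TIL averaged 5573 ± 327 in til1-1 samples and 20768 ± 676 in wild type (SD, n = 2 each), so that the level in til1-1 samples was 26.8% of the wild-type level. The log2 difference was -1.90 ± 0.09 (95% confidence interval -2.09 to -1.70), with a limma adjusted p of 1.51e-06. TIL had the smallest p-value of the 17059 probe sets and was the only one called lower; calls in either direction made up 0.0117% of tested probe sets. In size, the TIL difference was the third lowest. The groups did not overlap, which held in this direction for 18.5% of tested probe sets. As the seedlings were profiled in bulk, fewer cells with TIL transcript and less transcript per cell cannot be told apart. The lesion and the place of the probes are not stated in the labels. Whether the probe set reads intact TIL transcript in til1-1 samples was therefore not tested.

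At 22 °C the groups did overlap. TIL averaged 3108 ± 84.7 in til1-1 samples and 3464 ± 469 in wild type (SD, n = 2 each), and the higher til1-1 array (3167.6) lay above the lower wild-type array (3132.3). The log2 difference was -0.15 ± 0.09, with a 95% confidence interval of -0.35 to 0.05 and a limma adjusted p of 1. This interval spans ratios of til1-1 to wild type from 0.787 to 1.03. The 2 wild-type arrays at 22 °C were the least alike of the replicate pairs for TIL, with a ratio of 1.21, and the difference was -0.012 without wild-type replicate 1 and -0.29 without wild-type replicate 2. At this temperature the TIL level therefore did not separate the genotype labels; 0.00586% of tested probe sets were called between genotypes, and neither lipocalin was among them.

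**Figure D2:**
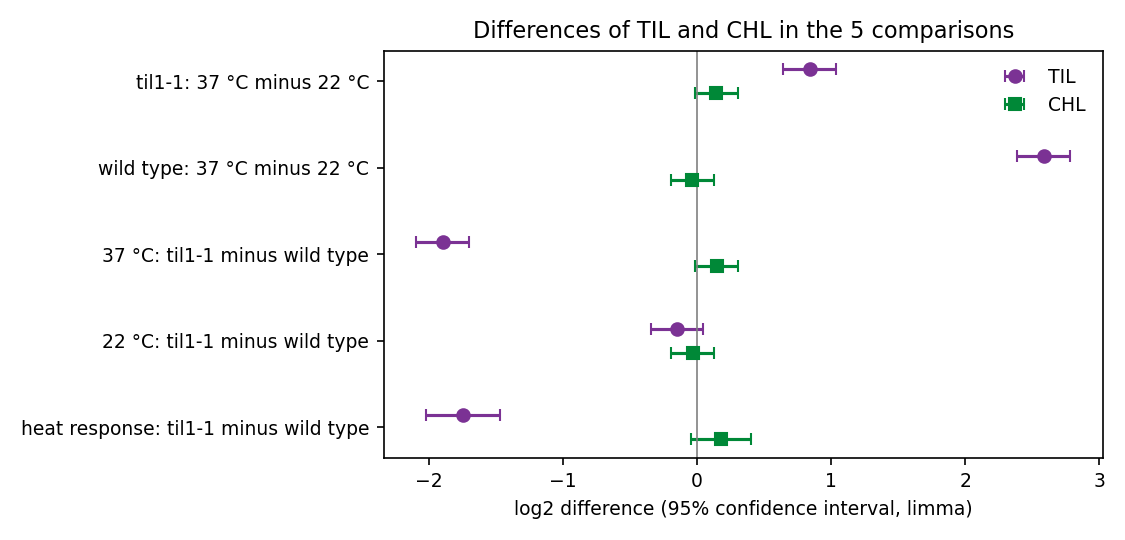
Log2 differences of TIL (circles) and CHL (squares) in the 5 comparisons, with 95% confidence intervals from limma. The TIL intervals exclude 0 in all comparisons but that of genotypes at 22 °C, and every CHL interval includes 0.

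The order of TIL levels was wild type at 37 °C, til1-1 samples at 37 °C, wild type at 22 °C and til1-1 samples at 22 °C. The first 3 groups in this order were separated from each other by gaps larger than their replicate ranges, and the last 2 were not separated.

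The difference of the heat responses was then tested directly. The log2 response of TIL in til1-1 samples minus that in wild type was -1.75 ± 0.13 (95% confidence interval -2.02 to -1.47), at a limma adjusted p of 0.000204. TIL was the 1 probe set called, which is 0.00586% of those tested; 1156 had an unadjusted p under 0.05. It stayed past the threshold under 16 of 17 alternatives. The exception was moderation of the spread without an intensity trend, where the adjusted p was 0.106 for the same difference and 1 other gene, AT5G59700, was called in place of TIL. The comparison at 37 °C and this one share their heated arrays and are not independent. Under the other array scalings the TIL value ran from -1.52 after quantile normalization to -1.76 with medians equal.

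**Figure D3:**
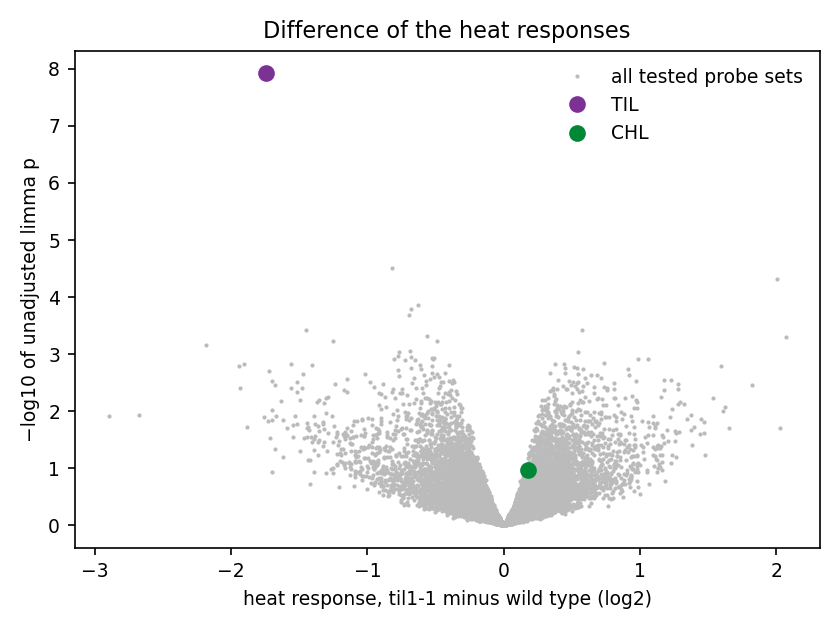
Difference of the log2 heat responses (til1-1 minus wild type, horizontal axis) against −log10 of the unadjusted limma p (vertical axis) for 17059 probe sets. TIL lies alone at the top, at a difference of -1.75; CHL lies at 0.18 among the other probe sets.

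Other genes that rose with heat in wild type gave a background for this value. In wild type 309 probe sets rose at least 4-fold, TIL among them. Over these, the til1-1 response minus the wild-type response had a median of -0.04 on the log2 scale and ranged from -1.75 (TIL) to 0.76. The next lowest was -1.62, for a probe set that has no name here. These probe sets were chosen by their wild-type response, so the values are a description.

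**Figure D4:**
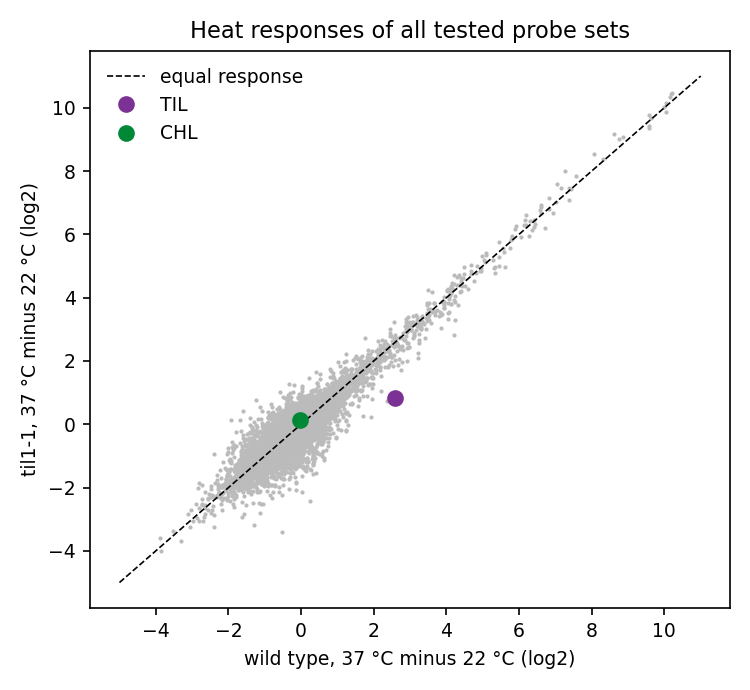
Log2 heat response in til1-1 samples (vertical axis) against that in wild type (horizontal axis) for 17059 probe sets, with a dashed line where the responses are equal. TIL lies below the line, at 0.84 in til1-1 samples and 2.58 in wild type, and CHL lies near the origin, at 0.14 and -0.04.

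CHL, which acts in the chloroplast, showed no call in any comparison as deposited. It read 3884.1 and 4233.9 in til1-1 samples at 37 °C, against 3713.7 and 3620.8 in til1-1 samples at 22 °C. In wild type it read 3744.5 and 3581.8 at 37 °C, against 3789.3 and 3716.7 at 22 °C. The highest values were those of heated til1-1 samples, and the wild-type groups overlapped.

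The heat response of CHL was 0.14 ± 0.07 on the log2 scale in til1-1 samples (95% confidence interval -0.01 to 0.30, limma adjusted p 0.13) and -0.04 ± 0.07 in wild type (-0.19 to 0.12, adjusted p 0.728). Calls in either direction made up 44.3% of tested probe sets in til1-1 samples and 43.7% in wild type. The sign of this response moved with array scaling. With array medians equal CHL was higher after heat, by 0.49 in til1-1 samples and 0.32 in wild type (limma adjusted p 0.000429 and 0.00733). With spiked controls it was lower, at -0.32 and -0.49 (adjusted p 0.0321 and 0.00187), and after quantile normalization it was -0.053 in til1-1 samples (adjusted p 0.577) and -0.25 in wild type (adjusted p 0.0129). Whether CHL transcript rose or fell with heat is thus not settled by these arrays.

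**Figure D5:**
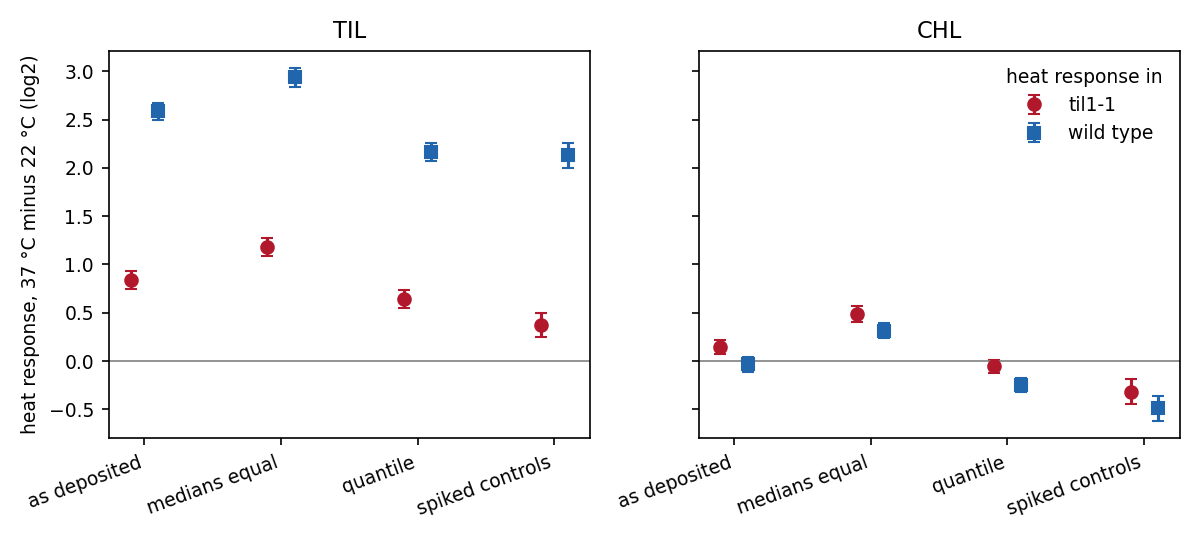
Log2 heat responses of TIL and CHL in til1-1 samples (circles) and wild type (squares) under 4 scalings of the arrays; error bars are standard errors from limma. TIL stays above 0 throughout, between 0.38 and 1.18 in til1-1 samples, while CHL lies on both sides of 0.

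Between genotypes CHL differed little. At 37 °C it averaged 4059 ± 247 in til1-1 samples and 3663 ± 115 in wild type (SD, n = 2 each), a log2 difference of 0.15 ± 0.07 (95% confidence interval -0.01 to 0.31, limma adjusted p 0.408). The groups did not overlap, which held in this direction for 20.9% of tested probe sets. At 22 °C it averaged 3667 ± 65.7 in til1-1 samples and 3753 ± 51.3 in wild type (SD, n = 2 each), a difference of -0.03 (-0.19 to 0.13, adjusted p 1). These groups did not overlap either, which held in this direction for 19.9% of tested probe sets. The heat responses differed by 0.18 ± 0.10 (-0.05 to 0.41, adjusted p 0.797). The interval at 37 °C spans ratios of til1-1 to wild type from 0.991 to 1.24. The order of CHL levels was til1-1 samples at 37 °C, wild type at 22 °C, til1-1 samples at 22 °C and wild type at 37 °C. Of the neighbours in this order, only wild type and til1-1 samples at 22 °C were compared by a test, and they did not differ past the threshold.

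The change of TIL relative to that of CHL on the same arrays does not depend on a scaling factor applied to a whole array. The log2 change of TIL with heat exceeded that of CHL by 0.70 in til1-1 samples (0.56 to 0.83 over pairs of arrays) and by 2.63 in wild type (2.50 to 2.75). Between genotypes at 37 °C, TIL changed by -2.05 relative to CHL (-2.17 to -1.92), and at 22 °C by -0.12 (-0.25 to 0.02). The lipocalins thus changed unequally with heat in both genotypes and between genotypes at 37 °C, on every pair of arrays.

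Of 59 other genes listed for the pathways around the lipocalins, 8 were measured by a probe set for that gene alone, and all 8 were tested. Measured has this sense below. The annotation leaves 8730 probe sets without a listed gene, so genes not counted as measured may still be on the array. Among thermotolerance genes 2 of 18 were measured: AT5G48570 (also ROF2), an FK506-binding co-chaperone, and HSA32, needed for acquired thermotolerance. Both rose in both genotypes, with a median log2 heat response of 6.38 in til1-1 samples and 6.20 in wild type, against -0.19 and -0.18 over all tested probe sets. AT5G48570 read 25896 and 25232 in til1-1 samples at 37 °C, against 25656 and 25199 in wild type at 37 °C. HSA32 read 5686 and 5310 in til1-1 samples at 37 °C, against 5378 and 5209 in wild type at 37 °C. The heated groups of HSA32 overlapped, as did those of AT5G48570. Their differences of heat response were 0.32 for AT5G48570 and 0.05 for HSA32 (limma adjusted p 0.65 and 0.98), in contrast to the -1.75 of TIL.

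For lipid peroxidation 1 of 15 listed genes was measured. AER, alkenal reductase, which reduces reactive aldehydes that arise from oxidised lipids, fell by 0.73 in til1-1 samples and by 0.52 in wild type on the log2 scale (limma adjusted p 0.00589 and 0.0332). With medians equal AER was at -0.39 in til1-1 samples and -0.17 in wild type, and neither passed (limma adjusted p 0.0864 and 0.448). The til1-1 call was also lost without til1-1 replicate 2 at 22 °C (-0.42, limma adjusted p 0.0749) or without til1-1 replicate 1 at 37 °C (-0.58, 0.0542). The wild-type call was also lost after quantile normalization (limma adjusted p 0.0616), with no filter (0.0659), without an intensity trend (0.116), and without wild-type replicate 2 at 22 °C (0.224) or either wild-type array at 37 °C (0.17 and 0.0507). Its responses differed by -0.21 between til1-1 samples and wild type (adjusted p 0.907). Heat shock lowered 31.6% of tested probe sets in til1-1 samples and 31.3% in wild type at an adjusted p under 0.05. None of 6 listed genes of tocopherol synthesis was measured here by name.

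Among genes of the photosystem II antenna, 3 of 14 were measured, all of the LHCB4 family, a linker between core and outer antenna. In til1-1 samples LHCB4.1 (0.62) and LHCB4.2 (0.45) rose and LHCB4.3 (-0.50) fell, with a median of 0.45. In wild type LHCB4.1 (0.39) rose, and LHCB4.2 (0.17) and LHCB4.3 (-0.25) did not pass, with a median of 0.17. Wild-type LHCB4.2 was called higher with medians equal (0.53, limma adjusted p 0.00118) and with a replicate block (0.0392). Wild-type LHCB4.3 was called lower with spiked controls (-0.69, limma adjusted p 0.000609). The rises depended on the scaling. After quantile normalization LHCB4.1 was called lower, at -0.15 in til1-1 samples and -0.21 in wild type (limma adjusted p 0.0426 and 0.00876). LHCB4.2 was then at -0.11 and -0.28 (limma adjusted p 0.363 and 0.029). With spiked controls these rises lost their calls. LHCB4.1 was at 0.15 in til1-1 samples and -0.066 in wild type (limma adjusted p 0.268 and 0.642), and LHCB4.2 at -0.010 in til1-1 samples (0.948). The til1-1 rise of LHCB4.2 also lost its call without til1-1 replicate 1 at 22 °C or replicate 2 at 37 °C (limma adjusted p 0.0544 and 0.0557). The fall of LHCB4.3 in til1-1 samples was not called with medians equal (-0.17, limma adjusted p 0.354), after quantile normalization (-0.31, 0.106), or without til1-1 replicate 2 at 22 °C (-0.40, 0.117) or at 37 °C (-0.40, 0.083). In the list of lipocalin-like, xanthophyll cycle and quenching genes, 2 of 6 were measured. AT4G31530 rose in til1-1 samples (0.38, limma adjusted p 0.00304) and was at 0.18 in wild type (adjusted p 0.108). With medians equal it was called higher in wild type too (0.52, limma adjusted p 0.000484). AT2G21860 was at -0.21 in til1-1 samples (limma adjusted p 0.139). In wild type it passed the threshold by a narrow margin (-0.29, limma adjusted p 0.0498). That call was lost after quantile normalization (-0.18, limma adjusted p 0.208), with a constant of 1 in place of 16 (0.0524) and with no filter (0.061). It was also lost without an intensity trend (0.0954) and with a replicate block (0.0525). Leaving out either wild-type array at 22 °C (-0.27 and -0.31), wild-type replicate 1 at 37 °C (-0.19) or either til1-1 array at 22 °C lost it too. With medians equal AT2G21860 was at 0.12 in til1-1 samples and 0.052 in wild type. With spiked controls it was at -0.67 and -0.74 (limma adjusted p 0.000219 and 7.31e-05). Under that scaling AT4G31530 was at -0.084 in til1-1 samples and -0.27 in wild type. With heat, 12.7% of tested probe sets were called higher and 31.6% lower in til1-1 samples, and 12.4% and 31.3% in wild type. No gene of these lists was called between genotypes or for the difference of responses. Such calls made up only 0.00586% to 0.0117% of tested probe sets, so their absence says little about these genes.

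Tissue markers were set beside the TIL difference. Of 7 markers of green shoot tissue 3 were measured (RCA, LHCB4.1, PSAE-1); their summed intensity was 79908 to 81062 in til1-1 samples at 37 °C and 69348 to 70691 in wild type at 37 °C. Of 4 root markers 3 were measured (PYK10, EXPA7, EXPA18), with sums of 8980 to 9153 in til1-1 samples at 37 °C and 10643 to 11601 in wild type at 37 °C. At 22 °C the green sums were 49420 to 51631 in til1-1 samples and 50955 to 55780 in wild type, and the root sums 16423 to 16719 and 17143 to 18836. As deposited, all 3 green markers were called higher with heat and all 3 root markers lower, in both genotypes. Over all tested probe sets, 12.7% were called higher and 31.6% lower in til1-1 samples, and 12.4% and 31.3% in wild type. The sums at 37 °C therefore cannot be read as tissue shares alone. The root sums were nearly all PYK10, which averaged 8908 in til1-1 samples at 37 °C and 10836 in wild type at 37 °C. None of these markers was at 0 in any array, and none was called between genotypes (limma adjusted p 0.103 to 0.388 at 37 °C). Calls between genotypes made up only 0.0117% of tested probe sets at 37 °C and 0.00586% at 22 °C. All 3 green markers were higher in til1-1 samples than in wild type at 37 °C, by 0.14 to 0.25 on the log2 scale. All 3 root markers were lower at that temperature, at -0.28 for PYK10, -0.68 for EXPA18 and -0.82 for EXPA7. None of the listed flower, pollen and seed storage markers was measured here by name. The part of tissue makeup in the TIL difference was not tested.

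The neighbourhood of each gene was set beside it, chosen by position after the values of TIL were known. Of the 5 protein-coding genes on either side of TIL, 8 were measured by a probe set of their own and 7 were tested. Between genotypes at 37 °C their log2 differences were -0.04 to 0.37, at 22 °C they were -0.09 to 0.62, and none was called. The nearest tested neighbour, YKT61, which encodes a SNARE protein of membrane fusion, differed by 0.06 at 37 °C and 0.16 at 22 °C. The neighbour AT5G58110 rose with heat by 2.09 in til1-1 samples and 2.13 in wild type. Of the 7 tested neighbours of TIL, 5 were called with heat in til1-1 samples and 4 in wild type. Of the 10 genes around CHL, 5 were tested, and none was called in any of the 5 comparisons. Heat calls made up 44.3% of all tested probe sets in til1-1 samples and 43.7% in wild type. Calls between genotypes or for the difference of responses made up at most 0.0117%.

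The genes whose pattern was most like that of TIL were named by Pearson r of log2 intensity over the 8 arrays, among 9399 other tested probe sets paired with 1 gene. They were AT5G62910 (r = 0.97), AT1G32460 (0.96), AT5G67220 (0.96), AT1G09740 (0.95) and AT2G23090 (0.95). The files and tables used here give these genes no further name. Their patterns were far flatter than that of TIL. As deposited, their log2 heat responses were 0.06 to 0.23 in til1-1 samples, where none passed. In wild type they were 0.20 to 0.53, and all 5 rose. With medians equal all 5 were also called higher in til1-1 samples (0.39 to 0.57, limma adjusted p 0.000473 to 0.0103). After quantile normalization AT1G09740 was called higher there (0.33, limma adjusted p 0.0141). The wild-type calls of AT1G32460 and AT2G23090 were lost after quantile normalization (limma adjusted p 0.636 and 0.729) and without an intensity trend (0.0827 and 0.119). AT5G67220, the one of largest response, read 1301 and 1365 in til1-1 samples at 37 °C, against 1657 and 1596 in wild type at 37 °C. The likeness depended on the scaling: with spiked controls r lay between -0.64 and 0.01, and with it the heat responses of all 5 in til1-1 samples turned negative and none of the 5 was called in wild type (-0.25 to 0.083, limma adjusted p 0.0675 to 0.919). The wild-type calls of AT5G62910, AT1G32460 and AT2G23090 were also lost without either wild-type array at 22 °C (limma adjusted p 0.0531 to 0.229). For CHL the most alike were AT2G18820 (0.96), AT5G11650 (0.94), SWEET16 (0.94), CHAT (0.94) and AT2G15580 (0.93). AT2G18820 and CHAT were dim, at 78.0 and 53.7 units in til1-1 samples at 37 °C and 40.3 and 28.05 in wild type at 37 °C. Without 1 array these r ranged from 0.71 to 0.99. Without til1-1 replicate 2 at 37 °C, r was 0.83 for AT2G18820, 0.85 for AT5G11650, 0.73 for SWEET16 and 0.71 for AT2G15580. For CHAT r was 0.928 or higher without any 1 array. This likeness depended on the scaling too: after quantile normalization the same r lay between -0.20 and 0.27, and with spiked controls between 0.42 and 0.92. CHL itself ranged only from 3582 to 4234 units over the 8 arrays, and its 2 highest values were those of heated til1-1 samples.

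By the smallest p-value for the difference of responses, the named genes after TIL were rpl36 (-0.63), which encodes a protein of the plastid ribosome, PIA1 (-0.56), a protein phosphatase, AT5G35680 (-0.49) and AT3G56270 (-2.18). None passed (limma adjusted p 0.552 to 0.6), and AT3G56270 was dim, at 4.35 units in til1-1 samples at 37 °C and 49.6 in wild type at 37 °C.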

How the data were processed

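The deposited table holds 1 linear intensity per probe set and array, made by the authors with GCOS, per the submitters' processing notes (version and settings: not given in the sources used here). Detection calls were not used. Arrays have no read depth; with 8 of them, precision is limited. Gene names came from the platform annotation, which pairs 13513 probe sets with 1 gene, 503 with several and leaves 8730 unlisted; symbols were updated by gene ID (13436 matched) from a table of TAIR10.1. No sequence was used.

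Intensities were taken as log2(intensity + 16), on which scale the log2 differences stand. The exception is the change of TIL relative to CHL, taken as log2 of the ratio of their intensities with no constant. The 64 controls and then the dimmest 25% were left out. The 17059 others were fitted with limma 3.58.1 in R 4.3.3 (1 mean per group, 4 residual degrees of freedom, empirical Bayes with intensity trend, Benjamini-Hochberg over all tested probe sets, threshold 0.05); every adjusted p is from it. The script was tested on simulated data. The spiked controls were 9 bio and cre probe sets. Named besides the members were measured genes of 5 lists, the 5 genes most like each member and the 5 of smallest interaction p, plus neighbours. Members and lists were chosen with earlier results of these data known. Alternatives were other constants (1, 64), filters, scalings, spread models, sample sets, a replicate block and leaving out each array.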

Additional observations from a re-analysis of the deposited data

Results flagged for a closer look

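The heat response of TIL differed between genotypes by a test of the difference itself: in til1-1 samples minus wild type it was -1.75 on the log2 scale (limma adjusted p 0.000204). All heated arrays lay above the unheated arrays of their genotype, and the rise was smaller in the til1-1 samples on every pair of arrays. Groups of 2 samples are too small for a check of single outlying arrays.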

How the results depend on the processing

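With 2 samples a group, each probe set has only 4 residual degrees of freedom of its own. The errors also draw on the spread over all tested probe sets, through empirical Bayes. Without detection calls or probe positions no level can be called absent. Under all 18 alternatives TIL was called higher after heat in both genotypes and lower in til1-1 samples than in wild type at 37 °C. The difference of its responses (-1.75) kept its size but not its call without an intensity trend (limma adjusted p 0.106), while leaving out 1 array gave -1.88 to -1.61. No paired design was given, and replicate differences correlated at -0.04 to 0.14 between groups. This low correlation over all probe sets does not settle whether arrays of the same replicate number share a batch. The 25S rRNA control and the end ratios of ubiquitin and GAPDH were higher in replicate 2 in all 4 groups. The actin ratio was higher in replicate 2 only in til1-1 samples at 22 °C. A replicate block changed no call of TIL or CHL. With it 3 probe sets were called between genotypes at 22 °C and 15 at 37 °C. Calls between genotypes at 22 °C numbered 1 in the reported fit, 0 with no filter on dim probe sets, without an intensity trend or with only the groups compared, 3 with spiked controls, and 0 to 2 without 1 array. At 37 °C they numbered 2 as reported, 1 with no filter, with the dimmer 50% left out or with only the groups compared, 10 without an intensity trend, 8 with spiked controls and 1 to 16 without 1 array. Calls for the difference of responses numbered 1 to 2 without 1 array, where AT3G25290 (without til1-1 replicate 1 at 37 °C) or AT3G06840 (without til1-1 replicate 2 at 37 °C) joined TIL. Spiked controls raised the heat calls to 12104 in til1-1 samples and 11882 in wild type, against 7563 and 7461.

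The CHL heat response in til1-1 samples and in wild type was 0.49 and 0.32 with medians equal, -0.053 and -0.25 after quantile normalization, and -0.32 and -0.49 with spiked controls; its genotype difference at 22 °C was 0.10 with spiked controls. With medians equal, AT2G21860 was at 0.12 in til1-1 samples and 0.052 in wild type, and LHCB4.3 at 0.088 in wild type. After quantile normalization, heat responses in til1-1 samples and in wild type were -0.15 and -0.21 for LHCB4.1, -0.11 and -0.28 for LHCB4.2 and -0.17 and -0.033 for AT2G23090, with AT1G32460 at -0.077 in til1-1 samples; r was -0.13 for AT2G23090 with TIL, and -0.20 for AT5G11650 and -0.064 for SWEET16 with CHL. With spiked controls, heat responses in til1-1 samples and in wild type were -0.084 and -0.27 for AT4G31530, -0.010 and -0.28 for LHCB4.2, -0.39 and -0.064 for AT5G62910, -0.39 and -0.22 for AT1G32460, -0.22 and -0.016 for AT1G09740, and -0.39 and -0.25 for AT2G23090, with LHCB4.1 at -0.066 in wild type and AT5G67220 at -0.32 in til1-1 samples; r with TIL was -0.29 for AT5G62910, -0.53 for AT1G32460, -0.17 for AT1G09740 and -0.64 for AT2G23090. The genotype difference of YKT61 at 37 °C was -0.00018 without wild-type replicate 1 at 37 °C. The causes were not tested. Of the other values of named genes under these alternatives, 527 kept direction and call, 40 lost and 11 gained a call.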
